A study of Mus musculus with 6 samples.

Results

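Toll-like receptors and their lipopolysaccharide (LPS) co-receptors were examined in unstimulated bone marrow-derived macrophages (BMDMs) with and without ATP citrate lyase (Acly), the cytosolic enzyme that makes acetyl-CoA from citrate. The genes were chosen by name, as a list of receptors, co-receptors and 1 adaptor, and comprised *Tlr1*, *Tlr2*, *Tlr4*, *Tlr6*, *Tlr7*, *Tlr8*, *Tlr9*, *Cd14*, *Ly96* and *Myd88*, which are 10 of the 24562 gene symbols in the count table. RNA-seq was performed on 3 control and 3 AclyM-KO libraries. The series' description gives the mice as female, while the study states for its in vitro work as a whole that marrow of both sexes was used. Control cells came from Cre-negative Acly fl/fl mice, whose *Acly* gene is floxed but intact, and AclyM-KO cells from Acly fl/fl mice that also carry LysMcre, a Cre recombinase driven by the *Lyz2* promoter and active in macrophages, monocytes and neutrophils. Marrow cells of both genotypes were differentiated with L929-conditioned medium, a source of macrophage colony-stimulating factor, and were left without LPS or any other stimulus. The study's figure legends give expression values of this RNA-seq as 3 technical replicates from 3 pooled mice. Every error and p-value here therefore measures the spread between technical replicates and not the spread between mice.

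Toll-like receptors are membrane proteins that recognise conserved microbial molecules. *Tlr4*, together with *Ly96* (MD-2) and *Cd14*, senses the LPS of Gram-negative bacteria, *Tlr2* senses lipoproteins as a heterodimer with *Tlr1* or *Tlr6*, and *Tlr7*, *Tlr8* and *Tlr9* sense nucleic acids inside endosomes. All of these receptors can signal through the adaptor *Myd88*, and macrophages carry many of them before any contact with a microbe.

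The total count over all transcripts was 19327459 to 23582992 in control libraries, 19797218 and 19867137 in AclyM-KO replicates 1 and 3, and 44507233 in AclyM-KO replicate 2, which was also the library farthest from the mean of its group. Levels are given as CPM, counts scaled to a common library size by edgeR's TMM normalization, and groups were compared by edgeR's quasi-likelihood test with adjustment over all 11470 genes tested. *Acly* itself fell from a mean of 229.7 to 96.8 CPM, with a log2 fold change (AclyM-KO minus control) of -1.25 and an adjusted p of 5.58e-07. The summed level of 6 macrophage markers was 8422 to 8626 CPM in control and 6832 to 8085 CPM in AclyM-KO libraries, where 2 of the 6 fell, *Csf1r* by 0.48 and *Mertk* by 0.67 on the log2 scale (adjusted p = 0.0391 and 0.00202), and *Adgre1* (0.07), *Cd68* (0.01), *Itgam* (0.00) and *Fcgr1* (-0.18) did not pass. Neutrophil markers summed to at most 23.4 CPM, B cell markers to at most 4.48 CPM with *Pax5* at 0, and fibroblast markers to at most 0.302 CPM with *Col3a1* and *Pdgfra* at 0, in any library. Monocyte markers summed to 12.9 to 15.8 CPM in control and 13.1 to 14.7 CPM in AclyM-KO libraries. The T cell list summed to 57.9 to 66.2 CPM in control and 34.5 to 50.9 CPM in AclyM-KO libraries, almost all of it *Cd4*, with *Cd3e* and *Cd3g* at 0 throughout. The dendritic cell list summed to 156 to 170 CPM and 119 to 133 CPM, almost all of it *Tcf4*. The part of these marker levels in the results below was not tested, and in bulk RNA fewer cells of a type and less RNA per cell cannot be told apart.

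All 10 genes passed the filter on low counts and were tested. *Tlr8* was the single gene of the list that changed, by -23.2% in AclyM-KO macrophages. Across all genes tested, 12.3% passed the threshold of 0.05 on the adjusted p, 6.7% in the upward and 5.65% in the downward direction (768 and 648 genes, or 919 and 508 when scaled by total counts), so 1 gene of 10 is near the background. None of the 10 genes rose by the edgeR test. At an unadjusted p of 0.05 or less, edgeR placed 2 of the 10 genes higher and 4 lower, DESeq2 gave 0 higher and 2 lower after adjustment, and limma-voom, here always with sample weights that let libraries count unequally, gave 1 higher and 2 lower. The shares of all genes called higher and lower by the same rules were 13.9% and 13.3% for the unadjusted edgeR p, 6.47% and 5.55% for DESeq2, and 9.68% and 9.39% for limma-voom. The median log2 fold change of the 10 genes was -0.11, beside 0.00026 over all genes tested. The 3 AclyM-KO libraries lay above all control libraries for *Tlr1* and *Cd14*, 2 genes of the 10 where 16.3% of all genes did so, and below all control libraries for *Tlr2*, *Tlr8* and *Tlr9*, 3 genes where 16.6% of all genes did so.

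**Figure D1:**
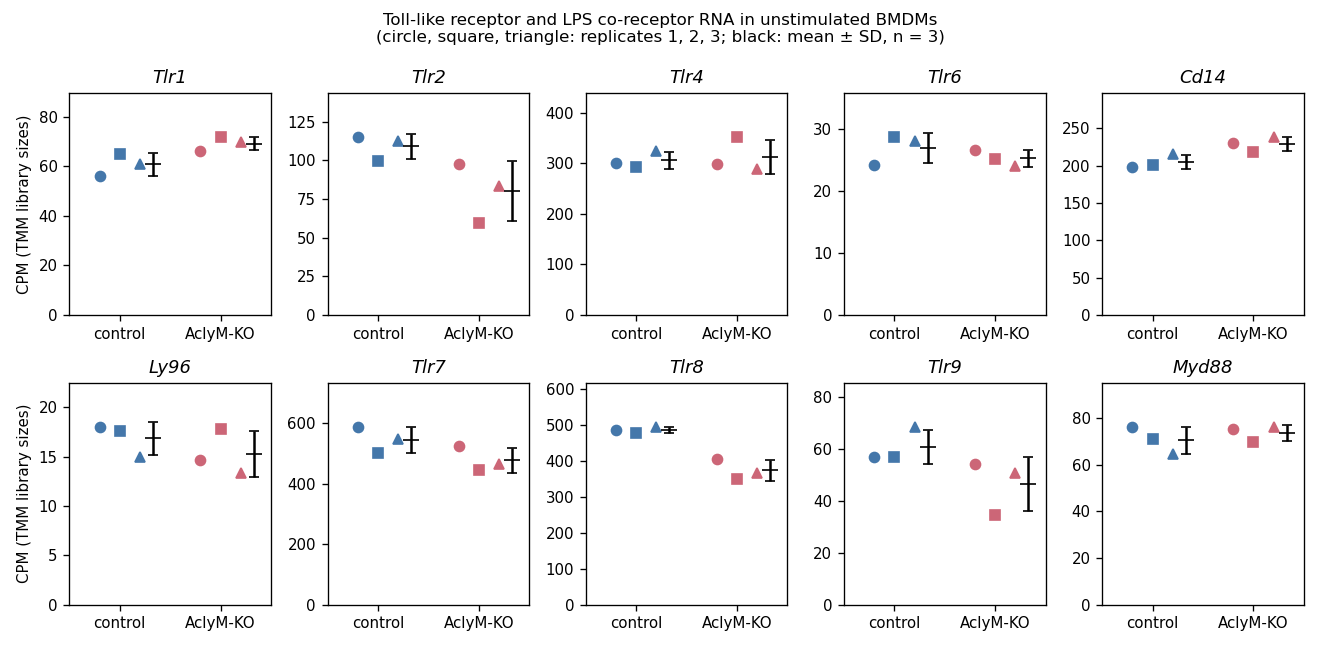
CPM of the 10 genes in each of the 3 control and 3 AclyM-KO libraries, with 1 point per library (circle, square and triangle for replicates 1, 2 and 3) and the group mean ± SD in black. The 2 groups are separate for *Tlr1*, *Tlr2*, *Tlr8*, *Tlr9* and *Cd14* and overlap for the other genes.

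*Tlr8* and *Tlr7* gave the largest RNA levels of the 10 genes per transcript length in control macrophages, and *Tlr6* the smallest. In RPKM, which also divides by transcript length, the mean control levels were 80.8 ± 1.82 (SD, n = 3) for *Tlr8* and 79.7 ± 6.20 for *Tlr7*, followed by 71.0 ± 3.80 for *Cd14* and 42.7 ± 2.65 for *Tlr4*. Below these came *Tlr2* at 20.6 ± 1.61, *Myd88* at 20.5 ± 1.56, *Ly96* at 15.2 ± 1.39, *Tlr1* at 11.4 ± 0.852, *Tlr9* at 9.93 ± 1.16 and *Tlr6* at 4.17 ± 0.385 RPKM. Of the neighbours in this order, the ranges over libraries overlapped for *Tlr8* and *Tlr7*, for *Tlr7* and *Cd14*, for *Tlr2* and *Myd88*, and for *Tlr1* and *Tlr9*, and the other neighbours were apart. In AclyM-KO macrophages the order of the first 3 was turned round, with *Cd14* at 81.4 ± 2.15, *Tlr7* at 71.6 ± 5.60 and *Tlr8* at 63.7 ± 4.36 RPKM, where every *Cd14* value lay above every value of both receptors. Neighbours whose ranges overlapped there were *Tlr7* and *Tlr8*, *Tlr2* and *Ly96*, and *Ly96* and *Tlr1*. Among all genes tested, the mean CPM of *Tlr7*, *Tlr8*, *Tlr4* and *Cd14* exceeded that of 98.0%, 97.4%, 95.9% and 93.2% of genes, whereas *Tlr6* and *Ly96* stood at 48.8% and 37.3%.

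*Tlr8* lies on the minus strand of the X chromosome at chrX:167241123-167264329 (GRCm38, the same assembly as mm10), 39050 bp from *Tlr7*. The protein is an endosomal receptor of the *Tlr7* family, known in humans as a sensor of RNA breakdown products. In control replicates 1, 2 and 3 its level was 488, 479 and 495 CPM, and in AclyM-KO replicates 1, 2 and 3 it was 406, 349 and 368 CPM, from 4221 to 9234 counts per library. The lowest control library was thus well above the highest AclyM-KO library. The log2 fold change was -0.38 (SE 0.070, 95% interval -0.53 to -0.23, edgeR adjusted p = 0.00498), and 82.3% of all genes tested had a smaller absolute change. Without the deep AclyM-KO replicate 2 the difference was -0.33. The 3 *Tlr8* transcripts in the table share exons and are not independent, and their log2 fold changes were between -0.38 and -0.36.

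*Tlr7*, its neighbour at chrX:167303380-167330574 on the same strand, is the main endosomal receptor for single-stranded RNA. Its levels were 588, 502 and 549 CPM in control and 524, 444 and 466 CPM in AclyM-KO replicates. AclyM-KO replicate 1 was above control replicate 2, so the groups overlapped, and the log2 fold change of -0.19 (SE 0.081, 95% interval -0.37 to -0.01) did not pass the edgeR test (adjusted p = 0.150). The count of *Tlr8* per count of *Tlr7* compares the neighbours within a library, where library size cancels. This ratio was 0.831, 0.954 and 0.902 in control and 0.775, 0.785 and 0.790 in AclyM-KO replicates. Every AclyM-KO ratio was below every control ratio. An exact two-sided permutation test over the 3 against 3 libraries gave p = 0.1, the smallest this design allows, and 0.18 after Benjamini-Hochberg adjustment over the 9 ratios examined.

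*Tlr9*, the endosomal receptor for unmethylated CpG DNA, lies at chr9:106222598-106226876 on the plus strand. It measured 56.8, 56.9 and 68.4 CPM in control and 54.2, 34.5 and 50.5 CPM in AclyM-KO replicates. All AclyM-KO libraries were below all controls, but replicate 1 only narrowly and replicate 2 by far. The log2 fold change of -0.40 (SE 0.148, 95% interval -0.73 to -0.08) missed the threshold in edgeR (adjusted p = 0.0998), and it was -0.21 without AclyM-KO replicate 2 (adjusted p = 0.0943) and -0.54 without AclyM-KO replicate 1 (adjusted p = 0.0419). The *Tlr9* to *Tlr7* count ratio overlapped between genotypes, with a log2 difference of -0.22 (exact permutation p = 0.4, n = 3 and 3).

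*Tlr2*, the lipoprotein receptor, is at chr3:83836272-83841824 on the minus strand. Its level was 115, 99.5 and 113 CPM in control and 97.7, 59.2 and 83.4 CPM in AclyM-KO replicates. The groups were separate, with AclyM-KO replicate 1 close to the lowest control and replicate 2 the lowest of all. The log2 fold change was -0.45 (SE 0.145, 95% interval -0.77 to -0.14), at an edgeR adjusted p of 0.0616. Leaving out AclyM-KO replicate 2 gave -0.26 (adjusted p = 0.0188) and leaving out AclyM-KO replicate 1 gave -0.63 (adjusted p = 0.0125), so both its size and its side of the threshold depended on which libraries were used. DESeq2 put *Tlr2* past the threshold on all 6 libraries (adjusted p = 0.0183).

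RefSeq promoter windows, with starts on GRCm38.p6, were available for 6 of the 10 genes, and those of *Myd88*, *Tlr8* and *Tlr9* lay wholly outside the GENCODE extent of the gene. For *Tlr2*, 216 of the 250 bases before the RefSeq start fell inside the annotated gene, and the windows of *Tlr1* and *Tlr6* fell inside in part or whole, so these 3 genes are left out. The window is shown for *Tlr8*, the gene that changed, and for *Tlr9*, the other endosomal receptor whose AclyM-KO libraries were all lower. Each is written 5′ to 3′ on the strand of its gene, and the capitals mark matches to the motifs named below. The windows are chrX:167264330-167264579 (minus strand) for *Tlr8* and chr9:106222348-106222597 (plus strand) for *Tlr9*.
Tlr8: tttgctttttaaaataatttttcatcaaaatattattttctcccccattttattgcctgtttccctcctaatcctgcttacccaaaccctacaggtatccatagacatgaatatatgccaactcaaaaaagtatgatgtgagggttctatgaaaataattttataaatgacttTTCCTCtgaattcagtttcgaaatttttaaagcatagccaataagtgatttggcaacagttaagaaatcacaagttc
Tlr9: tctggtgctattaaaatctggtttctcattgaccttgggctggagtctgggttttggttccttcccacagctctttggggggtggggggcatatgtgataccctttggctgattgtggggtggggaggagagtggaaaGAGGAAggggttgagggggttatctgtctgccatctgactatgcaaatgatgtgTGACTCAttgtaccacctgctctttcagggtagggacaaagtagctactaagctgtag
In all, 7 motifs were searched on both strands. The core of PU.1, the transcription factor that defines myeloid cells (GAGGAA), was found in *Tlr8* on the opposite strand at 77 to 72 bases before the start and in *Tlr9* at 112 to 107 bases. It occurs in 23.3% of the 32817 promoter windows of this length in the table. *Tlr9* also held an AP-1 motif (TGANTCA, 6.75% of windows) at 58 to 52 bases. No match in either window was found to the NF-kB consensus (7.25% of windows), the interferon-stimulated response element (2.97%), the ETS-IRF composite (2.30%), the LXR direct repeat (0.0152%) or the SREBP element (TCACNCCAC, 1.05%). The *Myd88* window held an interferon-stimulated response element at 40 to 31 bases.

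*Tlr1* and *Tlr6*, the partners of *Tlr2*, are neighbours on chromosome 5, at chr5:64924680-64933600 and chr5:64953092-64970942, both on the minus strand and 19491 bp apart. They are close paralogs, and 454 of the 2976 windows of 50 bases in the *Tlr1* transcript (15.3%) also occur in *Tlr6*. The authors filtered alignments on mapping quality, and the effect of these shared stretches on the counts was not tested. No other pair among the 7 receptors shares such a window. *Tlr1* measured 56.2, 65.1 and 60.8 CPM in control and 66.2, 71.6 and 69.7 CPM in AclyM-KO replicates. Every AclyM-KO library was above every control, by little between control replicate 2 and AclyM-KO replicate 1, and the log2 fold change of 0.19 (SE 0.079, 95% interval 0.02 to 0.36) did not pass the edgeR test (adjusted p = 0.148). *Tlr6* measured 24.2, 28.6 and 28.0 CPM in control and 26.6, 25.1 and 24.0 CPM in AclyM-KO replicates, with overlapping groups and a log2 fold change of -0.09 (95% interval -0.32 to 0.13, adjusted p = 0.597).

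The balance between *Tlr2* and its partners was compared by ratios of counts within each library. *Tlr1* per *Tlr2* was 0.489, 0.654 and 0.540 in control and 0.677, 1.21 and 0.836 in AclyM-KO replicates. *Tlr1* per *Tlr6* was 2.32, 2.27 and 2.17 in control and 2.48, 2.85 and 2.91 in AclyM-KO replicates. Both ratios were higher in all 3 AclyM-KO libraries than in any control. The log2 differences were 0.66 and 0.28, each at the smallest exact permutation p of 0.1 and at 0.18 after adjustment. The *Tlr6* to *Tlr2* ratio overlapped, with a log2 difference of 0.38 (exact permutation p = 0.3).

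*Tlr4*, the LPS receptor at chr4:66827551-66846581 on the plus strand, showed no difference beyond the spread between libraries. It measured 301, 292 and 325 CPM in control and 298, 351 and 288 CPM in AclyM-KO replicates. AclyM-KO replicate 2 was the highest of all libraries and AclyM-KO replicate 3 the lowest. The log2 fold change was 0.03 (SE 0.083, adjusted p = 0.845 in edgeR), and its 95% interval of -0.15 to 0.21 covers a change of -9.82% to 16.0%. The sign turned to -0.06 without AclyM-KO replicate 2.

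*Ly96*, at chr1:16688456-16709605 on the plus strand, encodes MD-2, the protein on *Tlr4* that binds the lipid part of LPS, and was the gene of the list with the fewest counts (153 to 472 per library). It measured 18.0, 17.6 and 14.98 CPM in control and 14.6, 17.8 and 13.3 CPM in AclyM-KO replicates. The groups overlapped, and the log2 fold change was -0.13 (SE 0.135, 95% interval -0.42 to 0.17, adjusted p = 0.596).

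*Cd14*, at chr18:36725064-36726815 on the minus strand, encodes a surface protein that hands LPS to the receptor complex. It measured 197, 201 and 215 CPM in control and 231, 219 and 238 CPM in AclyM-KO replicates. All AclyM-KO libraries were above all controls, with AclyM-KO replicate 2 just above control replicate 3. The log2 fold change of 0.16 (SE 0.067, 95% interval 0.01 to 0.31) missed the threshold in edgeR (adjusted p = 0.144), and it passed without AclyM-KO replicate 2 (0.20, adjusted p = 0.0153). Within libraries, the *Cd14* to *Tlr4* count ratio was 0.657, 0.689 and 0.664 in control and 0.774, 0.623 and 0.825 in AclyM-KO replicates, where AclyM-KO replicate 2 was below all controls and the others above them (exact permutation p = 0.4). The *Ly96* to *Tlr4* ratio also overlapped (log2 difference -0.18, exact permutation p = 0.4).

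*Myd88*, the shared adaptor at chr9:119335934-119340018 on the minus strand, measured 76.1, 71.0 and 64.5 CPM in control and 75.2, 69.9 and 76.2 CPM in AclyM-KO replicates. The groups overlapped, with a log2 fold change of 0.06 (SE 0.081, 95% interval -0.11 to 0.24, edgeR adjusted p = 0.678). Its exons share 290 bp with *Acaa1a* on the opposite strand. Libraries were strand-specific and the counting was run at the default settings of its tool, and whether those use strand is not given in the sources used here.

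**Figure D2:**
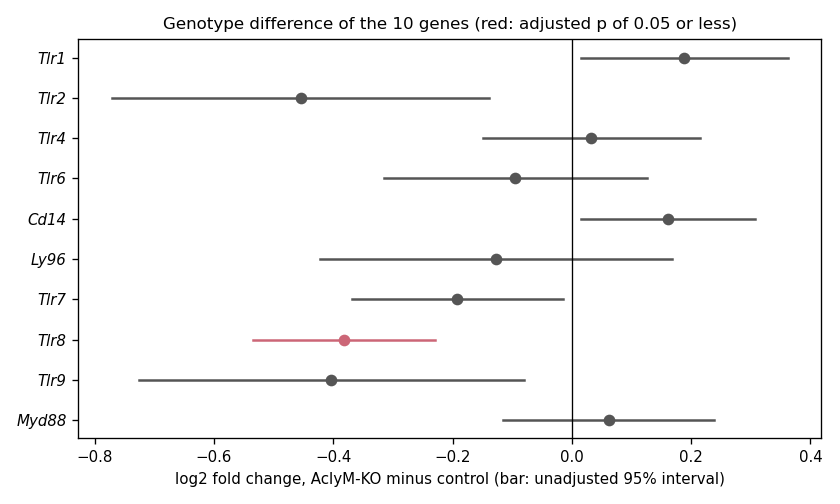
Log2 fold change of each gene, AclyM-KO minus control, with its unadjusted 95% interval from edgeR (n = 3 and 3). *Tlr8* (red, -0.38) is the gene past the threshold on the adjusted p, and the intervals of *Tlr4*, *Tlr6*, *Ly96* and *Myd88* include 0.

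The make-up of the receptor pool was described as the share of each receptor in the summed RPKM of the 7 Toll-like receptors of the list. The summed level was 252.7, 237.5 and 257.8 RPKM in control and 233.8, 215.2 and 213.1 RPKM in AclyM-KO replicates. The endosomal receptors *Tlr7*, *Tlr8* and *Tlr9* together took 69.3%, 68.0% and 67.8% of it in control and 66.6%, 62.3% and 65.4% in AclyM-KO replicates. Every AclyM-KO share was below every control share, with replicate 2 the lowest. In absolute terms the endosomal sum was 175, 162 and 175 RPKM in control and 156, 134 and 139 RPKM in AclyM-KO replicates. The sum of the surface receptors *Tlr1*, *Tlr2*, *Tlr4* and *Tlr6* overlapped, at 76.0 to 83.0 and 73.8 to 81.1 RPKM. *Tlr4* was the largest part of the surface sum, at means of 42.7 and 44.8 RPKM. *Tlr2*, in the same sum, had means of 20.6 RPKM in control and 15.5 RPKM in AclyM-KO. Among the 7 receptors only *Tlr8* passed the edgeR test. The share of *Tlr8* was 32.4 ± 0.781% in control and 28.8 ± 0.664% in AclyM-KO macrophages, and that of *Tlr7* 32.0 ± 1.60% and 32.4 ± 0.939% (SD, n = 3). *Tlr4* took 16.5%, 17.1% and 17.7% in control and 18.1%, 23.8% and 19.1% in AclyM-KO replicates, with replicate 2 far above the others. Shares of 1 library sum to 100%, so a lower share of one receptor raises the others. *Tlr13*, which is also endosomal but not among the 10 genes, had 85.7 ± 6.17 RPKM in control and 92.5 ± 9.79 RPKM in AclyM-KO macrophages (SD, n = 3). With *Tlr13* counted in, a choice made after seeing the data, the endosomal share was 76.7%, 77.0% and 75.8% in control and 75.5%, 74.6% and 75.6% in AclyM-KO replicates. The difference of the means was then -1.25 percentage points in place of -3.60, and the lowest control share was barely above the highest AclyM-KO share.

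**Figure D3:**
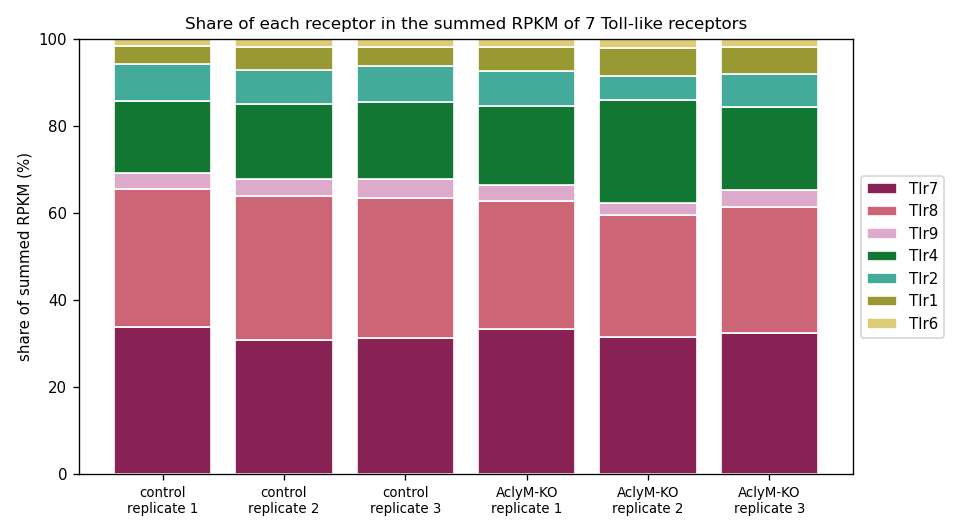
Share (%) of each of 7 Toll-like receptors in their summed RPKM, with 1 stacked bar per library. The 3 endosomal receptors at the bottom take 67.8 to 69.3% in control and 62.3 to 66.6% in AclyM-KO libraries.

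Genes that work with these receptors were taken from 9 lists, of which 8 are described here and the list of non-Toll sensors further on. Over all 9 lists, 68 of 72 genes were tested, and 3 rose (4.41%) and 10 fell (14.7%), beside 6.7% and 5.65% of all genes. Their median log2 fold change was -0.09, with 25 genes above 0 and 43 below.

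Of the 5 other Toll-like receptors, 3 were tested and 1 changed, beside 12.3% of all genes. *Tlr5*, the flagellin receptor, fell from 4.37, 4.93 and 5.59 CPM in control to 1.83, 2.34 and 2.79 CPM in AclyM-KO replicates (log2 fold change -1.09, SE 0.215, adjusted p = 0.00720). These are low levels, 21 to 66 counts per library, and the groups did not overlap. *Tlr13*, an endosomal sensor of bacterial ribosomal RNA, had 611 and 643 CPM (log2 fold change 0.07, adjusted p = 0.610), and *Tlr3*, the sensor of double-stranded RNA, had 23.1 CPM in both groups (adjusted p = 0.956). *Tlr11* and *Tlr12* had at most 3 counts in any library and were not tested.

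Of 8 genes for ligand delivery and accessory surface proteins, 2 rose and 2 fell, beside 6.7% and 5.65% of all genes. *Ly86* (MD-1), the partner of the Toll-like protein *Cd180* (RP105), fell from 124, 123 and 113 CPM to 72.0, 66.3 and 71.8 CPM (log2 fold change -0.78, SE 0.073, adjusted p = 5.78e-05). *Cd180* itself rose from 452, 493 and 443 CPM to 514, 635 and 567 CPM (0.31, SE 0.082, adjusted p = 0.0329). The genes of this receptor pair therefore moved in opposite directions, with no overlap between groups for either. The rise of *Cd180* lost its call without any 1 of the control replicates or without AclyM-KO replicate 3 (adjusted p = 0.0633 to 0.150), and its exons share 182 bp with *Mast4* on the opposite strand. *Cd36*, a scavenger receptor that can cooperate with *Tlr2* and *Tlr6*, rose from 1012, 1098 and 1130 CPM to 1446, 2134 and 1560 CPM (0.67, adjusted p = 0.00489). *Lbp*, the LPS-binding protein, fell from a mean of 5.49 to 3.25 CPM (-0.80, adjusted p = 0.0423), a call that was lost without any 1 of the control replicates, or AclyM-KO replicate 1 or 2 (adjusted p = 0.0606 to 0.212), and with limma-voom (adjusted p = 0.0528). *Grn*, *Itgam* and *Itgb2* had log2 fold changes of -0.11, 0.00 and 0.08 and did not pass.

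Of 12 genes for receptor folding, trafficking and endosomal processing, none rose and 2 fell, while edgeR at an unadjusted p of 0.05 or less gave 0 higher and 4 lower, DESeq2 gave 0 higher and 2 lower, and limma-voom gave 0 higher and 4 lower. Of all genes, 13.3%, 5.55% and 9.39% were lower by these 3 rules. *Pld3*, an endolysosomal exonuclease that degrades single-stranded nucleic acid, fell from 1179, 1120 and 1079 CPM to 943, 694 and 962 CPM (log2 fold change -0.38, adjusted p = 0.0398). The difference was -0.24 without AclyM-KO replicate 2, and the call was lost without any 1 of the control replicates (adjusted p = 0.106 to 0.152). *Slc15a3*, an endolysosomal transporter of peptides, fell from a mean of 374 to 319 CPM (-0.23, adjusted p = 0.0380). Its call was lost without any 1 library other than AclyM-KO replicate 2 (adjusted p = 0.0761 to 0.183) and on scaling by total counts (adjusted p = 0.0760), and 1541 bp of its exons overlap *Tmem132a* on the opposite strand. *Unc93b1*, the chaperone that carries the endosomal receptors out of the endoplasmic reticulum, measured 709.5, 641 and 650.5 CPM in control and 603, 400.3 and 581 CPM in AclyM-KO replicates. All AclyM-KO libraries were below all controls, but the log2 fold change of -0.34 did not pass in edgeR (adjusted p = 0.103), and it passed in limma-voom (-0.22, adjusted p = 0.0303). The chaperone *Hsp90b1* (0.13) and the protease *Lgmn* (-0.12) did not pass either.

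Among the TIR adaptors, which join receptors to kinases, 4 of 5 were tested and 0 changed, with 0 higher and 1 lower at an unadjusted edgeR p of 0.05 or less (13.9% and 13.3% of all genes) and 0 by DESeq2 and by limma-voom. The log2 fold changes of *Pik3ap1*, *Ticam2* and *Ticam1* were 0.12, -0.24 and -0.18. Of 14 Myddosome kinases and ubiquitin ligases, *Peli2*, a ubiquitin ligase that acts on IRAK kinases, was the 1 gene that changed (7.14%, beside 12.3% of all genes). It fell from 84.0, 71.1 and 77.1 CPM to 53.6, 31.8 and 49.5 CPM (-0.80, SE 0.158, adjusted p = 0.00712), with no overlap of groups, and 869 bp of its exons are shared with the pseudogene *Gm6498* on the same strand. *Irak1* (0.21, adjusted p = 0.0917), *Tab2* (-0.11) and *Map3k7* (0.03) did not pass, although *Irak1* did in limma-voom (adjusted p = 0.00452).

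Of 5 IKK and TBK1 kinases, *Ikbke* fell from 151, 148 and 139 CPM to 125, 99.8 and 117 CPM (-0.37, adjusted p = 0.0179), a call lost without any 1 of the control replicates (adjusted p = 0.0541 to 0.0921). *Tbk1* (-0.14), *Ikbkb* (-0.22) and *Ikbkg* (0.10) did not pass, although *Ikbkb* did in limma-voom (adjusted p = 0.0471). Of 6 interferon regulatory factors, *Irf8*, a factor of myeloid development that also acts downstream of Toll-like receptors, fell from 291, 269 and 279 CPM to 214, 162 and 197 CPM (-0.55, SE 0.093, adjusted p = 0.00326). The AclyM-KO libraries were all well below the controls. *Irf5* (-0.02), *Irf1* (-0.30) and *Irf7* (0.48, adjusted p = 0.0902) did not pass, although *Irf7* did in DESeq2 (adjusted p = 0.0402). Of 9 negative regulators, 8 were tested, and *Dusp1*, a phosphatase that switches off MAP kinases, rose from 10.6, 12.6 and 11.7 CPM to 15.7, 22.8 and 19.3 CPM (0.74, SE 0.148, adjusted p = 0.00800). *Nrros* (-0.01), *Tollip* (0.09) and *Cyld* (-0.09) did not pass. In these lists of kinases, regulatory factors and negative regulators, 20%, 16.7% and 12.5% of the genes tested were called, beside 12.3% of all genes.

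**Figure D4:**
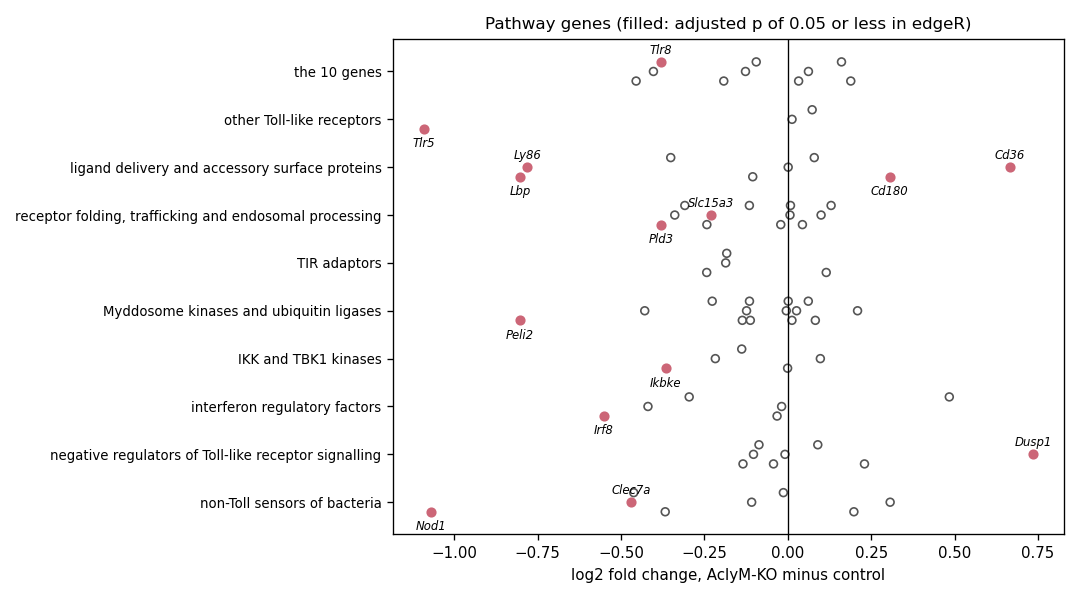
Log2 fold change, AclyM-KO minus control, of the 10 genes and of the genes of 9 related lists, with 1 point per gene. Filled points passed the edgeR threshold, and 10 of the 13 filled points in the 9 related lists are below 0.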

How the data were processed

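The authors sequenced strand-specific mRNA libraries of BMDMs, aligned the reads to mm10 with STAR 2.5.2b (CASAVA 1.8.2 is also named in the submitters' processing notes), filtered alignments on mapping quality and counted reads per RefSeq transcript with HOMER2 at its default settings. They deposited these raw counts, neither normalized nor summed over libraries. Of the 12 value columns, the other 6 match no sample used here and were not used. The 35745 transcripts were reduced to the most counted transcript of each symbol. The replicate numbers come from the sample labels.

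Counts were tested with edgeR 4.0.16 in R 4.3.3 (TMM, filterByExpr, quasi-likelihood, genotype alone, Benjamini-Hochberg adjustment). RPKM used the transcript length and the total over all transcripts. Count ratios were compared by exact permutation tests. The alternatives were DESeq2 1.42.0, limma-voom with sample weights (limma 3.58.1), scaling by RLE or by totals alone, testing every gene, at least 10 counts in every library, a replicate block, all transcripts, the longest transcript, each library left out and a threshold of 0.01.

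The genes and lists were chosen with earlier results of these data known. All 10 genes are named, and from each list the genes past the threshold plus up to 3 others by highest CPM. Older symbols were matched where needed. The 4 listed genes below the filter were not tested. IL-4- and LPS-stimulated cells were not analysed here.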

Additional observations from a re-analysis of the deposited data

How the results depend on the processing

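*Tlr8* stayed past the threshold in all 15 alternatives, with log2 fold changes of -0.45 to -0.33 and adjusted p up to 0.0407. The number of the 10 genes higher in AclyM-KO was 0, and 1 with limma-voom (*Cd14*, adjusted p = 0.0209), and ranged from 0 to 1 when 1 library was left out. The number lower was 1, and 2 with DESeq2 and limma-voom, 3 when low counts were kept, 3 under the replicate block, and 1 to 3 when 1 library was left out. The added genes were *Tlr2* and *Tlr9*. Over all genes, calls of lower genes also rose, from 648 to 803 when low counts were kept and to 721 under the replicate block. DESeq2 and limma-voom called 5.55% and 9.39% of all genes lower. The *Tlr4* difference, which did not pass in any alternative, turned to -0.043 with limma-voom, -0.00083 without control replicate 2 and -0.060 without AclyM-KO replicate 2, and reached 0.087 without AclyM-KO replicate 3. Of the 9 lists, 10 genes fell, but 6 at a threshold of 0.01 and 6 to 12 when 1 library was left out, and 3 rose, or 2 to 5 when 1 library was left out.

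Deviations of same-numbered libraries from their group means had correlations of 0.09, 0.12 and -0.05. Those of differently numbered libraries were -0.14 to 0.08. These few values cannot decide whether the numbers pair the samples, and the labels do not say so. With the replicate block, *Tlr2* had -0.47 (adjusted p = 0.00493) and *Tlr9* -0.41 (adjusted p = 0.0234).

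Over all genes, 768 rose and 648 fell. These became 363 to 384 and 235 to 282 without 1 control replicate, and 343 and 214 at a threshold of 0.01. With limma-voom 1110 rose and 1077 fell, without AclyM-KO replicate 2 1105 and 1031, and without AclyM-KO replicate 3 627 and 424. Scaling by total counts gave 919 and 508 and moved the median of all genes by 0.04 on the log2 scale. The causes were not tested. With 3 libraries a group, the intervals of *Tlr6*, *Ly96* and *Tlr4* leave differences of up to 0.32, 0.42 and 0.21 on the log2 scale undetected.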

Other observations

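A list of sensors of bacteria outside the Toll-like family was measured in the same libraries. It also holds signalling and effector genes, so not all of its members are sensors of bacteria. Of its 8 genes tested, 0 rose and 2 fell, beside 6.7% and 5.65% of all genes. At an unadjusted edgeR p of 0.05 or less 1 was higher and 4 were lower, beside 13.9% and 13.3% of all genes. DESeq2 and limma-voom each gave 0 higher and 2 lower, beside 6.47% and 5.55% of all genes in DESeq2 and 9.68% and 9.39% in limma-voom. *Nod1*, a cytosolic sensor of peptidoglycan fragments, fell from 29.6, 23.8 and 22.1 CPM in control to 14.0, 9.82 and 12.7 CPM in AclyM-KO replicates (log2 fold change -1.07, SE 0.154, edgeR adjusted p = 0.00145). *Clec7a* (Dectin-1), a receptor for fungal beta-glucan that the list also holds, fell from 325, 360 and 345 CPM to 238, 266 and 239 CPM (-0.47, SE 0.071, adjusted p = 0.00186). For both genes the groups were separate, and both passed the threshold in all 15 alternatives. *Nlrp3* (-0.11), *Gsdmd* (-0.01) and *Casp4* (0.31) did not pass.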
